A study of Homo sapiens with 2 samples.

Results

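Glycolytic enzymes and genes that respond to low oxygen were followed on 2 spotted cDNA arrays that compared Saos-2-2, a stable TSG101 knockdown line, with its parent Saos-2. The members were 42 listed genes in 4 groups by role, and a spot was taken when the gene symbol of the array was a listed one and the scanner software had not marked the spot as unusable. Of the 42 genes, 39 were tested, out of 13194 tested genes in all. They were represented by 76 cDNA clones, of which 70 were tested and 6 were not, since their spots were marked as unusable on 1 or both arrays. HK1, GAPDH and EGLN1 had no spot under their symbols and were not analysed here.

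Saos-2 is a human osteosarcoma cell line, and TSG101 is a subunit of the ESCRT machinery that sorts ubiquitinated membrane proteins at the endosome. Saos-2-2 cells constitutively expressed an shRNA against the TSG101 coding sequence and were isolated as a single clone after co-transformation with a plasmid for GFP and puromycin resistance. Both lines were grown in the same medium with fetal bovine serum, and no hypoxic treatment was named. Each array held 1 of 2 biological replicates, and Cy5 marked the Saos-2-2 RNA and Cy3 the Saos-2 RNA each time. Without a dye swap or a line with a control shRNA, a dye effect, cloning, selection and lower TSG101 cannot be told apart.

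Glycolysis splits glucose into pyruvate, which is either reduced to lactate or oxidised in mitochondria, and tumour cells are known for high glycolytic flux. Hypoxia-inducible factors (HIF) are dimers of an oxygen-labile alpha subunit with ARNT. When oxygen is present, prolyl hydroxylases of the EGLN family mark the alpha subunit for destruction through VHL. When oxygen is low, the dimer binds short DNA elements with the core ACGTG or GCGTG and raises transcription of most glycolytic enzymes, of PDK1, which holds pyruvate back from the mitochondrion, and of genes for angiogenesis, pH control and collagen modification.

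Promoters of 6 members are shown. They belong to the glycolytic enzymes HK2, PGK1 and ENO1 and to the member with the lowest ratio (P4HA1). The others are the members whose ratios differed most between the arrays in each direction (ADM, EGLN3). Each is the 250 bases before the most upstream RefSeq start site of the gene, 5′ to 3′ on the coding strand, in build GRCh38.p14. PFKP (-0.92) and ALDOA (-0.82), with lower ratios than PGK1 (-0.41) and ENO1 (-0.62), are not shown. The same windows of PFKP and ALDOA held 0 cores and 1 core. Capitals mark every ACGTG or GCGTG core read on either strand, so that CACGT and CACGC are the same cores on the opposite strand. HK2 lies at chr2:74833877-74834126 (plus strand), PGK1 at chrX:78103998-78104247 (plus), ENO1 at chr1:8878687-8878936 (minus), P4HA1 at chr10:73096867-73097116 (minus), ADM at chr11:10304823-10305072 (plus) and EGLN3 at chr14:33951075-33951324 (minus).
HK2: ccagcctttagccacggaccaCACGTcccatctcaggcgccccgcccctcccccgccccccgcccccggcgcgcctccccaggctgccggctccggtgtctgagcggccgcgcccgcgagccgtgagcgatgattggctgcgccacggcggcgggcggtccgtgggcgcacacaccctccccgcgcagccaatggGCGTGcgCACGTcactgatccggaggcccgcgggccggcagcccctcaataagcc
PGK1: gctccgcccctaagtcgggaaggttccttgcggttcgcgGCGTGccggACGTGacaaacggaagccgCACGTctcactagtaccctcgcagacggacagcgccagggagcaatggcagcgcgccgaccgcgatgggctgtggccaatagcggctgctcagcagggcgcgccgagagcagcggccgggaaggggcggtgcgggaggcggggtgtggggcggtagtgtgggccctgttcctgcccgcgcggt
ENO1: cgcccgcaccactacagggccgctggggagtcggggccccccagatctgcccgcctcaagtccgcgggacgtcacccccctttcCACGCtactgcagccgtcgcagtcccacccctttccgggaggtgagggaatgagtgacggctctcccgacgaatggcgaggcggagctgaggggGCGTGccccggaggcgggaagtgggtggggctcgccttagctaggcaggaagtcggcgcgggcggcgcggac
P4HA1: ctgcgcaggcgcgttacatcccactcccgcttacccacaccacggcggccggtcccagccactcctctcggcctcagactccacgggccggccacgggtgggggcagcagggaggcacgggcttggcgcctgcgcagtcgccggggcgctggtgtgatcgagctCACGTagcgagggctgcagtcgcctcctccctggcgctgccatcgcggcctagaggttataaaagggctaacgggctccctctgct
ADM: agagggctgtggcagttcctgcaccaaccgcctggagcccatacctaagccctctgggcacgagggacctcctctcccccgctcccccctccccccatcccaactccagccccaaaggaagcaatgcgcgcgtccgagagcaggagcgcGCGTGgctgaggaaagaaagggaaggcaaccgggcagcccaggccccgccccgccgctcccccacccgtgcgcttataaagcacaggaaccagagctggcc
EGLN3: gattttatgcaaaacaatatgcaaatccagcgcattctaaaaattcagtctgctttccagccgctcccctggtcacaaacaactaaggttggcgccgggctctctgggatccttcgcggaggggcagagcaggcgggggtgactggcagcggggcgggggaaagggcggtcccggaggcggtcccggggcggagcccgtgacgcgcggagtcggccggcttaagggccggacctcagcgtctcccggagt

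The HK2 and PGK1 windows held 3 cores each, ENO1 held 2, P4HA1 and ADM held 1 each, and EGLN3 held 0. In HK2 a GCGTG on the coding strand began 55 bases before the start site and an ACGTG on the opposite strand 48 bases before it. Of the 39 tested members 36 matched the RefSeq windows, by 58 windows, and 37 of these windows (63.8%) held at least 1 core, against 43.2% of 35116 windows of the same length before all gene starts. At least 2 cores were found in 17 member windows (29.3%), against 19.4% of all windows. The windows of 12 of 15 glycolytic enzymes, 5 of 6 matched PFKFB and PDK genes, 2 of 3 genes of HIF subunits and oxygen sensors and 11 of 12 matched hypoxia-responsive genes held a core. By windows, in the same order, 17 of 30, 6 of 10, 2 of 4 and 12 of 14 held a core, against 43.2% of all windows. Some genes had several windows, some of them overlapping, and the share by gene over all genes was not counted. A match describes the letters and says nothing of binding in these cells.

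Each array carried 41568 spots, of which 37719 on replicate 1 and 37088 on replicate 2 were usable, and 0 spots were saturated. The median signal was 3.29 to 3.59 times the local background in the 4 channels. TSG101 itself stood at -0.36 on the log2 scale (-0.48 on replicate 1, -0.24 on replicate 2), with an adjusted p of 0.201 from limma. The osteosarcoma label was checked against 9 osteoblast markers. Of the 8 that were tested, 6 differed by at least 1 on the log2 scale between the arrays, and in each of the 6 the larger part of the difference lay in the Saos-2-2 channel. COL1A2, a chain of type I collagen, read 2625 and 1760 in Saos-2 but 280 and 17711 in Saos-2-2, and SPARC, a bone matrix protein, 1818 and 1156 in Saos-2 but 390 and 5569 in Saos-2-2. The 2 Saos-2-2 replicates thus stood apart from each other. The values of each array or of all 4 samples are therefore given for the members described in full, and a ratio printed alone is the mean of both arrays. Epithelial markers (4 tested), haematopoietic markers (3) and endothelial markers (3) gave median log2 ratios of 0.09, -0.11 and -0.22, with 0, 1 and 0 of them lower at an unadjusted p under 0.05 and none higher, and signals ran from 1.70 to 2.71 times background for PTPRC and PECAM1 and from 7.06 to 17.6 times for CD14 and KRT18. The part of these differences in the results on the members was not tested.

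Values are given in 2 forms. An intensity is the normalized signal of 1 channel on a linear scale, and intensities of different genes are not levels that can be set against each other, since clones differ in length and spot. A log2 ratio is Saos-2-2 over Saos-2 on 1 array, or the mean of the 2 arrays with its moderated standard error (SE, n = 2 arrays). For a gene with several clones the brightest tested one is given unless stated.

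The members leaned below 0. Their median log2 ratio was -0.27, against -0.02 over all tested genes, and it was -0.46 on replicate 1 and -0.16 on replicate 2. Of the 39 genes, 22 (56.4%) were below 0 on both arrays against 36.4% of all tested genes, 6 were above 0 on both against 32.4%, and 11 had opposite signs against 31.2%. No member passed an adjusted p of 0.05 in limma, and neither did any other gene (0% of 13194 in either direction), the smallest adjusted p of a member being 0.106. At an unadjusted p under 0.05 in the same fit, 15 members (38.5%) were lower in Saos-2-2 against 11.4% of all tested genes, and 0 were higher against 11.9%. On a single array 31 of the 39 members were below 0 on replicate 1 and 24 on replicate 2, against 6973 and 6753 of all 13194 tested genes.

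**Figure D1:**
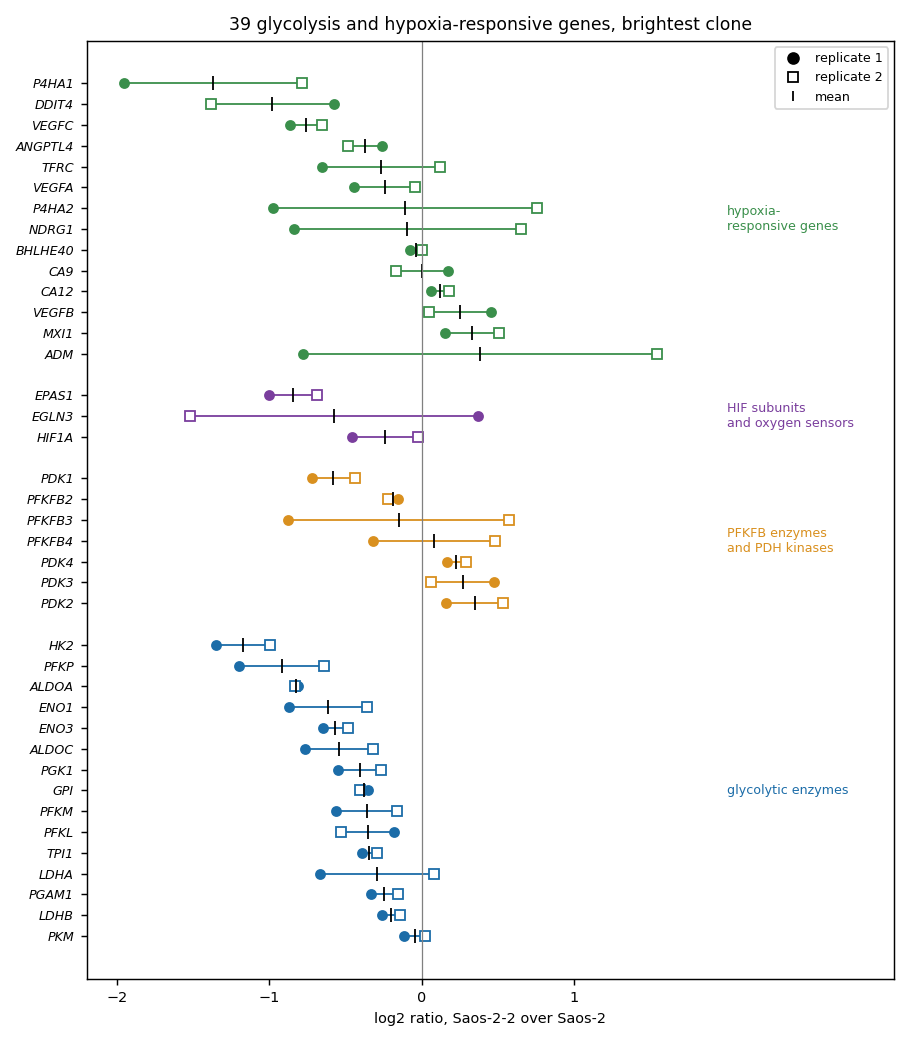
Log2 ratio of Saos-2-2 over Saos-2 (horizontal axis) for the 39 tested members, each by its brightest clone, grouped by role. Filled circles are replicate 1, open squares replicate 2 and ticks their mean, and all 15 glycolytic enzymes have a mean below 0, while 11 members have opposite signs on the 2 arrays.

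All 15 tested glycolytic enzymes had a mean log2 ratio below 0, 13 were below 0 on both arrays, and for 9 the unadjusted p was under 0.05 (60%, against 11.4% of all tested genes). Their median was -0.38, with -0.56 on replicate 1 and -0.32 on replicate 2. By clones, 21 of 25 were below 0 on both arrays against 35.6% of all clones, and 14 of 25 had a low ratio with an unadjusted p under 0.05 against 9.7%. Many of these spots were bright. The loess step centres ratios near 0 at every intensity, so that the median of bright genes was set by the normalization. Among the 3640 genes with a mean log2 intensity of at least 9 11.2% had a low ratio with an unadjusted p under 0.05, as had 7 of the 12 glycolytic enzymes among them, with a median of -0.37.

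HK2, the inducible hexokinase that traps glucose as glucose 6-phosphate, had the lowest ratio of the enzymes. The intensity of its brightest clone was 727 and 772 in the 2 Saos-2 samples and 285 and 387 in the 2 Saos-2-2 samples. The samples of the lines did not overlap, and the level was 2.26-fold lower in Saos-2-2 (log2 ratio -1.18 ± 0.14, SE, limma adjusted p = 0.106). The other 2 HK2 clones gave ratios nearer to 0, -0.54 and -0.23, both below 0 on both arrays. The next enzyme, the isomerase GPI, read 3572 and 2398 in Saos-2 against 2796 and 1806 in Saos-2-2 (log2 ratio -0.38 ± 0.10). Its ratios were alike on the arrays, at -0.35 and -0.41, although both lines read lower on replicate 2 and the samples of the lines overlapped.

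Phosphofructokinase commits the sugar to glycolysis and is a tetramer of the platelet (PFKP), muscle (PFKM) and liver (PFKL) subunits. PFKP read 702 and 760 in Saos-2 and 306 and 487 in Saos-2-2 by its brighter clone, a ratio of -0.92 ± 0.18 (limma adjusted p = 0.125, 1.89-fold lower). Its other clone did not show this, with 265 and 400.5 in Saos-2 and 281 and 393 in Saos-2-2 (log2 ratio 0.03). PFKM gave -0.36, with -0.56 and -0.16 on the arrays. The clones of PFKL also differed in sign. One read 1625 and 1215 in Saos-2 and 1433 and 842 in Saos-2-2 (-0.36), the other 917 and 988 in Saos-2 and 998 and 1028 in Saos-2-2 (0.09).

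Aldolase splits fructose 1,6-bisphosphate into 2 triose phosphates. ALDOA read 6949 and 5710 in Saos-2 against 3948 and 3205 in Saos-2-2, and its ratios were nearly equal on the arrays, -0.82 and -0.83. The mean, -0.82 ± 0.10, had a limma adjusted p of 0.106, and the level was 1.77-fold lower. A second ALDOA clone gave -0.60. By that clone both lines read far higher on replicate 2, by 1.53 in Saos-2 and 1.70 in Saos-2-2 on the log2 scale. Whether its spot holds ALDOA on both arrays was not tested. ALDOC, the brain-type aldolase, read 576 and 606 in Saos-2 and 338 and 485 in Saos-2-2 (-0.55 ± 0.15), and its other clone gave -0.70. All 4 aldolase clones were thus below 0 on both arrays.

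The enzymes tested between triose phosphate and phosphoglycerate were below 0 on both arrays. TPI1, which interconverts the trioses, read 933.5 and 1034 in Saos-2 against 712 and 842 in Saos-2-2 (-0.34 ± 0.10). PGK1, the first ATP-forming enzyme of the pathway, whose promoter with 3 cores is printed above, read 1933 and 1491 in Saos-2 and 1320 and 1239 in Saos-2-2 (-0.41 ± 0.12). Its 3 clones were all below 0 on both arrays but spread from -0.72 to -0.10. PGAM1, the phosphoglycerate mutase, gave -0.25, with -0.34 and -0.16 on the arrays.

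Enolase makes phosphoenolpyruvate, and both of its tested genes were low. ENO1, the ubiquitous form, read 5380 and 4547 in Saos-2 and 2935 and 3543 in Saos-2-2 (-0.62 ± 0.17, limma adjusted p = 0.164), and its second clone gave -0.78. ENO3, the muscle form, read 755 and 613 in Saos-2 against 481 and 437 in Saos-2-2 (-0.57 ± 0.11, limma adjusted p = 0.126). The lines did not overlap for either gene.

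The last steps stood nearer to 0. LDHA, which reduces pyruvate to lactate, read 2337 and 2640.5 in Saos-2 and 1472 and 2792 in Saos-2-2, so that its ratio was -0.67 on replicate 1 and 0.08 on replicate 2. Its Saos-2 samples lay close together while the Saos-2-2 samples lay on both sides of them. LDHB, the heart-type subunit, gave -0.20. Its brighter clone read 119 and 99.3 on replicate 1 but 3617 and 3275 on replicate 2, in Saos-2 and Saos-2-2 respectively, and its other clone 403 and 389 on replicate 1 but 72.2 and 68.1 on replicate 2. Both lines moved alike on each spot, and the ratios (-0.26 and -0.14, -0.05 and -0.08) differed less than the intensities did. Whether these spots hold LDHB on both arrays was not tested, and LDHB is 1 of the 13 enzymes counted as below 0 on both arrays. PKM, the pyruvate kinase, gave -0.05 from a dim clone at 1.49 to 1.78 times background.

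**Figure D2:**
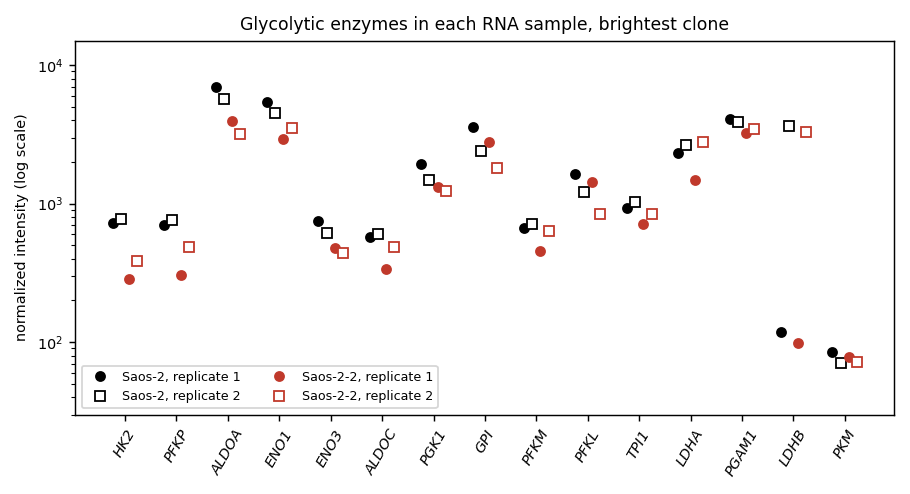
Normalized intensity (vertical axis, log scale) of the brightest clone of each of the 15 tested glycolytic enzymes in the 4 RNA samples. Black symbols are Saos-2 and red symbols Saos-2-2, circles are replicate 1 and squares replicate 2; for HK2 the Saos-2-2 samples read 285 and 387 and the Saos-2 samples 727 and 772, and heights are not comparable between genes.

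The group of 7 genes that steer the flux held bifunctional PFKFB enzymes, which set the level of the phosphofructokinase activator fructose 2,6-bisphosphate, and pyruvate dehydrogenase kinases. Its median log2 ratio was 0.08, with 1 gene lower at an unadjusted p under 0.05 (14.3%, against 11.4% of all tested genes) and 3 genes above 0 on both arrays (against 32.4%). The low gene was PDK1, the kinase known as a HIF target. It read 278 and 266 in Saos-2 and 168.5 and 196 in Saos-2-2 (-0.58 ± 0.12, limma adjusted p = 0.136), and its other 2 clones gave -0.49 and -0.48.

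The other kinases were on the opposite side. PDK2 read 513 and 462 in Saos-2 and 573 and 669 in Saos-2-2 (0.35 ± 0.14, limma adjusted p = 0.252). PDK3 gave 0.27 by its brightest clone and 0.43 and 0.64 by the others, and PDK4 gave 0.23. None of these had an unadjusted p under 0.05 by the brightest clone, and 1 dimmer PDK3 clone did. The difference between PDK1 and the other kinases was not tested.

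PFKFB3, the form with high kinase activity, read 419 and 290.0 in Saos-2 and 227.5 and 432 in Saos-2-2, a ratio of -0.88 on replicate 1 and 0.57 on replicate 2. Its second clone turned in the same way, from -0.32 to 0.54, although the clone means differed in sign (-0.15 and 0.11). PFKFB4 went from -0.32 to 0.48. PFKFB2 gave -0.16 and -0.22 by its tested clone, at 1.67 to 2.04 times background. Its other clones, each usable on 1 array only and not tested, lay above 0. They gave 0.50 on replicate 1 and 0.39 on replicate 2. By the tested clone PFKFB2 was counted among the 22 members below 0 on both arrays.

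Among HIF subunits and oxygen sensors 3 genes were tested, and all had means below 0. EPAS1, the HIF-2 alpha subunit, read 274 and 303 in Saos-2 and 137 and 188 in Saos-2-2 by its brightest clone. The lines did not overlap, the ratio was -0.84 ± 0.13, and the limma adjusted p was 0.111 (1.80-fold lower). The other EPAS1 clones gave -1.20 and -0.32, so that the size of the ratio depended on the clone and its sign did not.

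HIF1A, the HIF-1 alpha subunit, lay nearer to 0. It read 3349 and 3045 in Saos-2 against 2434 and 2998 in Saos-2-2, a ratio of -0.46 on replicate 1 and -0.02 on replicate 2 (-0.24 ± 0.15, limma adjusted p = 0.394). Its second clone gave -0.54, with -0.68 and -0.40 on the arrays. HIF1A protein is set mainly by its stability, which these arrays did not measure.

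EGLN3, a prolyl hydroxylase that HIF is known to induce, turned between the arrays against the direction of the other 5 members that differed by at least 1. It read 301 and 439 in Saos-2 and 389 and 153 in Saos-2-2, so that the ratio was 0.37 on replicate 1 and -1.52 on replicate 2 (mean -0.58 ± 0.50). A second clone gave like ratios, 0.34 and -1.61, while its Saos-2 samples read 251.5 and 233. The printed promoter of EGLN3 held no core, and intronic elements were not searched.

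The 14 hypoxia-responsive genes had a median log2 ratio of -0.10, with -0.51 on replicate 1 and 0.02 on replicate 2. Lower at an unadjusted p under 0.05 were 4 of them (28.6%, against 11.4% of all tested genes), and 6 had opposite signs on the arrays (against 31.2%). The lowest was P4HA1, a prolyl 4-hydroxylase alpha subunit needed for stable collagen. It read 1051 and 872 in Saos-2 and 271 and 506 in Saos-2-2, with ratios of -1.95 and -0.78 (mean -1.37 ± 0.32, limma adjusted p = 0.145). The lines did not overlap, although the ratios differed by over 1 between the arrays.

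DDIT4, an inhibitor of mTORC1 signalling that is induced by hypoxia and other stress, read 1985 and 1884 in Saos-2 and 1330 and 722 in Saos-2-2. The ratio was -0.98 ± 0.23 (limma adjusted p = 0.146), and a second clone gave -1.13. VEGFC, a growth factor of lymphatic vessels, read 634 and 930 in Saos-2 and 349 and 590 in Saos-2-2 (-0.76 ± 0.11, limma adjusted p = 0.110). The ratios of VEGFC were close on the arrays, -0.86 and -0.66, while both lines read higher on replicate 2.

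ANGPTL4, a secreted inhibitor of lipoprotein lipase, was low by 1 clone only. That clone read 187 and 193 in Saos-2 and 156 and 138 in Saos-2-2 (-0.37 ± 0.12), and a dimmer one 98.0 and 93.7 in Saos-2 and 113 and 112 in Saos-2-2 (0.23). BHLHE40, a circadian and hypoxia-induced repressor, read 1351 and 942 in Saos-2 and 1280.5 and 942 in Saos-2-2 by 1 clone (-0.04), and 237 and 195 in Saos-2 and 232 and 248 in Saos-2-2 by the other (0.16). The clones of these genes therefore gave no single direction.

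The remaining vascular and pH genes and TFRC had means nearer to 0. VEGFA, the main hypoxia-induced angiogenic factor, gave -0.44 and -0.05 on the arrays, and VEGFB, which is not known for hypoxic induction, 0.45 and 0.05. The carbonic anhydrases CA9 and CA12, which act at the cell surface in pH control, had means of 0.00 and 0.12. CA9 was above 0 on replicate 1 (0.17) and below 0 on replicate 2 (-0.17). TFRC, the transferrin receptor, had 3 tested clones with means from -0.36 to -0.14, and the brightest went from -0.66 on replicate 1 to 0.12 on replicate 2, another from -0.76 to 0.04.

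MXI1, an antagonist of MYC that HIF induces, was the member with the most clones. All 7 had a mean above 0, from 0.06 to 0.40, and 6 were above 0 on both arrays. Its brightest clone read 502 and 466 in Saos-2 and 558 and 661 in Saos-2-2 (0.33 ± 0.14, limma adjusted p = 0.259). Of its clones 2 were higher at an unadjusted p under 0.05, and with 1 PDK3 clone these were the 3 clones of any member that were (against 13.5% of all clones). Above 0 on both arrays were 15 of the 70 tested clones of members, against 35.2% of all clones.

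**Figure D3:**
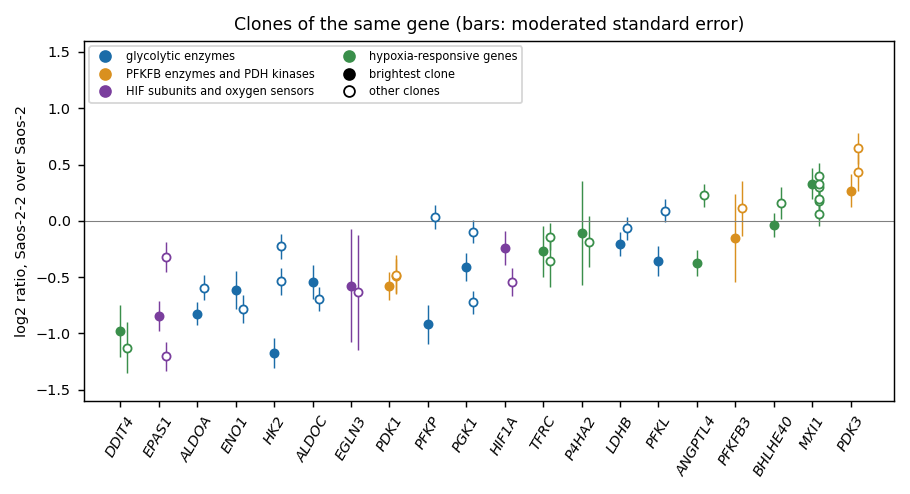
Mean log2 ratio of Saos-2-2 over Saos-2 (vertical axis) of each tested clone for the 20 members with more than 1 clone, ordered by the mean over clones and coloured by role. Filled symbols are the brightest clone, open symbols the others, and bars the moderated standard error from 2 arrays; 15 genes have all clones on 1 side of 0, and the 7 MXI1 clones lie between 0.06 and 0.40.

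Clones of the same gene allowed a check inside the array. For 15 of the 20 members with more than 1 tested clone all clone means had the same sign, and the median range between clones of a gene was 0.25. The exceptions were ANGPTL4, BHLHE40, PFKL, PFKFB3 and PFKP. Clones of a gene were hybridised with the same RNA, so that they repeat the spot and not the culture. The mark for failed wells was found on at least 1 spot of 4 tested clones. These were the brightest EGLN3 clone, the VEGFA clone, the PGK1 clone at -0.10 and the ALDOC clone at -0.70.

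Several members gave unlike ratios on the arrays. The median absolute difference between the 2 log2 ratios was 0.35 for the members, 0.28 for their glycolytic enzymes and 0.21 for all tested genes. A difference of at least 1 was found for 6 members, 5 with a higher ratio on replicate 2 (against 2.69% of all tested genes) and 1 with a lower one (against 1.58%), while 4.27% of all tested genes differed by at least 1. Genes are not replicates of each other, and as a description only, Pearson's r between both arrays across genes was 0.17 over the members, 0.66 over the glycolytic enzymes and 0.44 over all tested genes. None of the glycolytic enzymes differed by at least 1, and 4 of the hypoxia-responsive genes did (ADM, P4HA2, NDRG1 and P4HA1).

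**Figure D4:**
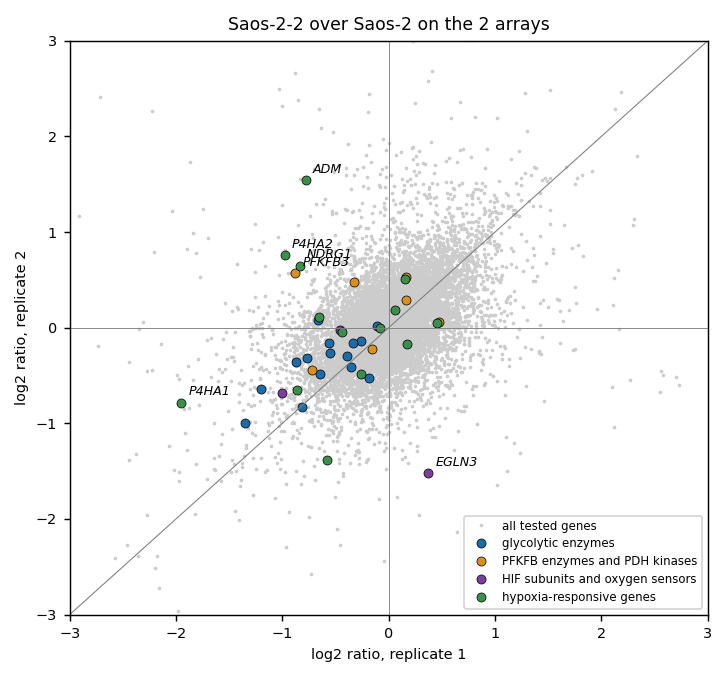
Log2 ratio of Saos-2-2 over Saos-2 on replicate 2 (vertical axis) against replicate 1 (horizontal axis), with all tested genes in grey, members coloured by role, and the 6 members named whose ratios differ by at least 1. Of the 15 glycolytic enzymes 13 lie in the lower left, below 0 on both arrays. ADM lies far above the diagonal of equal values and EGLN3 far below it. The 16 genes past 3 in size on an array are outside the axes.

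ADM, the vasodilator peptide adrenomedullin, differed most. It read 305 and 280 in Saos-2 and 178 and 816 in Saos-2-2, and its ratio went from -0.78 to 1.54. NDRG1, a stress-induced protein linked to growth arrest, read 616 and 415 in Saos-2 and 344 and 650 in Saos-2-2 (-0.84 and 0.65). P4HA2, the second prolyl 4-hydroxylase alpha subunit, read 965 and 429 in Saos-2 and 490 and 726 in Saos-2-2 (-0.98 and 0.76), and its other clone gave -0.58 and 0.21. For ADM, the Saos-2 samples lay close together and the Saos-2-2 samples on both sides of them. By the brighter P4HA2 clone both lines moved, in opposite directions. The other P4HA2 clone did not show this, with 153 and 170 in Saos-2 and 103 and 196 in Saos-2-2.

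Between replicates within a line, log2 changes of the middle 95% of all tested genes ran from -0.54 to 0.53 in Saos-2 and from -0.99 to 1.00 in Saos-2-2. A single channel of different arrays also carries differences between spots, which a ratio does not. In Saos-2-2 the change from replicate 1 to replicate 2 was 2.20 for ADM and -1.35 for EGLN3, both outside that range, and 0.92 for LDHA, 0.92 for PFKFB3 and 0.92 for NDRG1, inside it. In Saos-2 it was -0.12 for ADM. Outside the range for Saos-2 were P4HA2 (-1.17, against 0.57 in Saos-2-2), GPI (-0.57), NDRG1 (-0.57), VEGFC (0.55) and EGLN3 (0.54), the last 4 by little, and the LDHB clone described above, which was outside the range in both lines. These are values of the brightest clones. The other clones of P4HA2 and EGLN3 changed by 0.15 and -0.11 in Saos-2, inside the range. The osteoblast markers that moved between the same Saos-2-2 samples are given above, and their part in these differences was not tested.

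**Figure D5:**
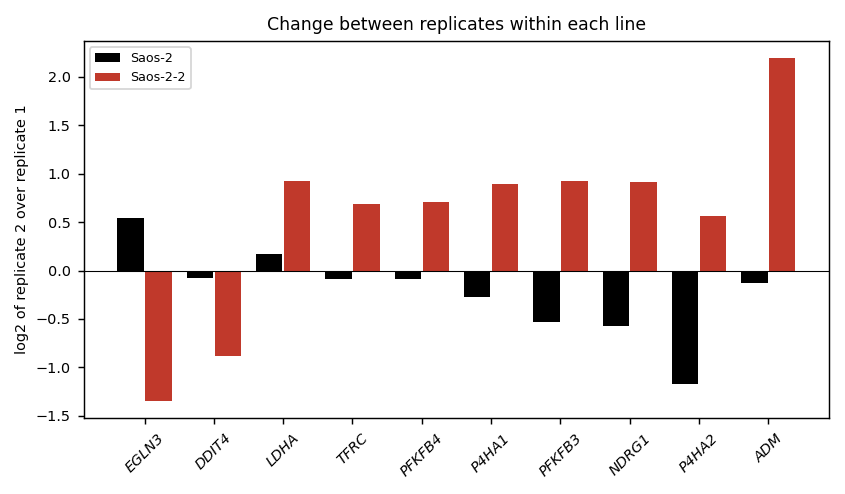
Log2 of replicate 2 over replicate 1 (vertical axis) of the normalized intensity in Saos-2 (black) and Saos-2-2 (red), for the 10 members whose log2 ratios differ by at least 0.7 between the arrays. The bars are single values without an error; the tallest is ADM in Saos-2-2, at 2.20, and P4HA2 has the largest Saos-2 bar of these 10, at -1.17.

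Other genes of the same pathways were read from lists chosen by function. Of 4 glucose and lactate transporters 1 was lower at an unadjusted p under 0.05 (25%, against 11.4% of all tested genes). This was SLC2A1, the main glucose transporter GLUT1 and a HIF target, which read 701 and 728 in Saos-2 and 491 and 475 in Saos-2-2 (-0.56 ± 0.10, limma adjusted p = 0.123). Its 4 clones ran from -0.85 to -0.56. SLC16A3, the lactate exporter MCT4, lay on the other side at 0.41, with 0.20 and 0.62 on the arrays.

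The pentose phosphate pathway draws on glucose 6-phosphate to make NADPH and ribose. All 6 of its tested genes were below 0 on both arrays (against 36.4% of all tested genes), with a median log2 ratio of -0.32. Of the 6, 3 were lower at an unadjusted p under 0.05 (50%, against 11.4% of all tested genes). TKT, the transketolase, gave -0.69 (-0.73 and -0.65), RPIA -0.43 and PGD -0.38. Of 11 genes of gluconeogenesis and glycogen, 8 were below 0 on both arrays (72.7%, against 36.4%), and the median of the 11 was -0.12. Lower at an unadjusted p under 0.05 were 3 of them (27.3%, against 11.4%). These were the glycogen synthase GYS1 (-0.48) and the glycogen phosphorylases PYGL (-0.62) and PYGB (-0.48).

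The list of pyruvate dehydrogenase and the citric acid cycle had 19 tested genes. At an unadjusted p under 0.05, 2 were lower (10.5%, against 11.4% of all tested genes) and none was higher. The 2 were the succinate dehydrogenase subunit SDHB (-1.12) and the succinyl-CoA ligase subunit SUCLG2 (-0.35). The median log2 ratio of the list was -0.08. SDHB read 3378 and 3577 in Saos-2 and 1303 and 1973 in Saos-2-2, with no overlap.

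Other hypoxia-induced genes gave both directions. Of 17 tested, 4 were lower at an unadjusted p under 0.05 (23.5%, against 11.4% of all tested genes). Among them were the collagen lysyl hydroxylase PLOD2 (-0.68), the oxidoreductase ERO1A (-0.72) and FAM162A (-0.50). At that level 2 of the 17 were higher by the brightest clone, against 11.9% of all tested genes. They were INSIG2, a regulator of sterol synthesis (0.51), and the nuclear receptor RORA (0.42). The clones of INSIG2 ran from 0.10 to 0.51 and those of RORA from -0.27 to 0.42. Of 9 other genes of the HIF machinery 1 was higher, HIF3A (0.79), against 11.9% of all tested genes. None of the 9 was lower, against 11.4%. HIF3A read 76.9 and 80.8 in Saos-2 and 144 and 128 in Saos-2-2, and its other clone gave 0.06. The Saos-2 signals of the brightest HIF3A clone were near background, at 1.61 and 1.67 times it. Of 7 genes of iron uptake and storage the ferritin light chain FTL (-0.52) was lower and the iron exporter SLC40A1 (0.50) higher. This was 1 of 7 in each direction, against 11.4% and 11.9% of all tested genes. The other clones of FTL and SLC40A1 stood near 0, at -0.002 and -0.02. The brightest SLC40A1 clone was dim in Saos-2, at 2.27 and 1.90 times background. Over the 7 lists together 14 of 73 genes (19.2%) had a low and 4 a high ratio with an unadjusted p under 0.05, against 11.4% and 11.9% of all tested genes, with a median of -0.08.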

How the data were processed

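RNA of Saos-2-2 (Cy5) and Saos-2 (Cy3) was hybridised to 2 cDNA arrays, 1 per biological replicate. Deposited by the authors were linear scanner intensities of each channel with local background, not normalized, log2 ratios scaled by 1 factor per array, and quality scores (a spot flag and a mark for failed wells) from the scanner software and print list. Agilent Feature Extraction is the tool named in the submitters' processing notes, with no version given.

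R 4.3.3 and limma 3.58.1 were used. Normexp with an offset of 50 was applied to the mean foregrounds of all spots. Global loess (span 0.3) was fitted to each array with no weight on control and flagged spots, which were then removed. Printed intensities were put on a common scale between arrays (Aquantile), which leaves ratios unchanged. Spots of a clone were averaged, and a probe needed 1 channel at 1.5 times background or more on each array. A single-column model with moderated variance (prior df 2.75) tested 34674 probes against 0, with Benjamini-Hochberg adjustment over all of them. Of these, 21943 had the name of 1 gene. As a check, changes were simulated in 200 of the 34674 probes. At a true log2 ratio of 1 the model recovered 0 of them, with 1 false call. At 2 it recovered 170, with 18 false calls, and at 3 it recovered 198, with 11. In each run the 200 shared 1 ratio, all other probes stood at 0 and errors were independent. The recovered counts therefore do not tell which ratios these arrays could detect.

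The members, lists and tests were chosen with earlier results of these data known. By rule, channel values were given for members with an unadjusted p under 0.05 or a ratio past 0.8 in size on the log2 scale, for HIF subunits and oxygen sensors, and for members whose clones differed in sign; of the other lists, genes at an unadjusted p under 0.05 were named, except for a value that is not reported here. LDHA, LDHB, PDK2, MXI1, ADM, NDRG1, P4HA2 and SLC16A3 were added after their values were seen. PKM2 of the arrays is given as PKM. With 2 arrays, their number limits the precision. The alternatives changed a processing step, the array or the values used. Leaving out failed wells, leaving out CGAP plates, and net ratios without normalization, which change the background correction and the normalization together, were added after the data were seen. Matplotlib 3.10.9 (Python 3.11.15) drew the figures.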

Additional observations from a re-analysis of the deposited data

How the results depend on the processing

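With the alternatives that kept both arrays, 35 of the 39 members kept the sign of their log2 ratio throughout. CA9 went from 0.00 to -0.006 with median foregrounds, -0.087 with print-tip loess, -0.031 with median centring, -0.13 with the deposited ratios and -0.107 with the scanner's ratios of means. PKM turned to 0.062 without normalization and 0.129 with net ratios that were not normalized, PFKFB4 to -0.05 with the deposited ratios, and BHLHE40 to 0.06 as a mean over clones. The number of members called at an adjusted p under 0.05 in limma, 0 in the fit reported (15 at an unadjusted p under 0.05), was 3 without normalization (ALDOA, DDIT4, HK2), 6 with the deposited ratios (ALDOA, EPAS1, HK2, P4HA1, PFKP, VEGFC), 4 with the scanner's ratios of means and 6 with net ratios that were not normalized, all lower, against 1.05%, 1.94%, 1.34% and 1.88% of all genes. Members higher at an unadjusted p under 0.05 numbered 2 with print-tip loess, 1 without normalization and 1 with net ratios that were not normalized. The median of the members was -0.54 with the deposited ratios and -0.54 with the ratios of means, settings in which all genes shifted to -0.13 and -0.13. The median of the glycolytic enzymes was -0.58 with median centring, -0.74 with the deposited ratios and -0.67 with the ratios of means. Members above 0 on both arrays numbered 3 with the deposited ratios. The cause of these shifts was not tested. From 1 array alone, the median was -0.16 to -0.46 for the members and -0.32 to -0.56 for the glycolytic enzymes. No paired analysis was possible because the arrays formed 1 group, with no other group to pair it with; the log2 ratio within an array already sets the lines against each other. Dim spots near background, such as PKM, limit what a ratio near 0 can show.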

Other observations

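Clones that the arrays assign to a member and to another gene stood outside the counts. A clone annotated to both CA9 and MS4A6A gave log2 ratios of -0.14 and -0.14 on the arrays. A clone annotated to both NDRG1 and DNAJB11 gave -0.50 and 0.23, a turn between the arrays in the same direction as the clone of NDRG1 alone (-0.84 and 0.65). Of the 76 clones of members, 6 were not tested, 2 of PFKFB2 and 1 each of CA12, NDRG1, PDK4 and TFRC.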
